A study of Mus musculus with 6 samples.

Results

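A set of 9 genes of the simple epithelial cytoskeleton were followed in non-differentiated mouse embryonic stem cells, with and without forced human *HOXA13*. They were chosen by symbol as 9 of the 24393 features counted, namely the keratins *Krt7*, *Krt8*, *Krt18*, *Krt19* and *Krt20*, the microvillus genes *Ezr*, *Vil1* and *Vill*, and *Igsf8*. KH2 cells are an embryonic stem cell line built to take up a transgene at a fixed site, and their labels give the strain C57/BL/6. The *HOXA13* group carried FLAG-tagged human *HOXA13* under doxycycline control and held 3 libraries, and the control group of the same line held 3 libraries. All 6 cultures grew in medium with LIF on irradiated 3T3-Swiss albino fibroblast feeder cells, so that feeder RNA can be among the counts. The labels state that no treatment was applied, while the study's methods name doxycycline for checking targeted clones. The study's methods call the 3 cultures of each group biological replicates, chosen after targeted clones had been checked, without saying whether each was a clone of its own, and the p-values measure the spread between these libraries only. Total counts ranged from 14608681 to 21766589 in control and from 13494135 to 20374341 in *HOXA13* libraries. Reads of the human feature ENSG00000106031 numbered 4298, 4177 and 2881 with *HOXA13*, against 6, 0 and 0 in control. As markers of the labelled cell type, the stem cell genes *Pou5f1*, *Sox2* and *Nanog* were at 219.9 CPM or above in every library, the lowest being *Sox2* in control 1 (CPM, counts per 1e+06 counts of the library after TMM scaling, edgeR's correction for composition).

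Keratin filaments are built from obligate pairs of a type I and a type II keratin, and an unpaired keratin is degraded. In simple epithelia such as the gut lining, *Krt8* (type II) pairs with *Krt18* (type I), while *Krt7* (type II), *Krt19* and *Krt20* (both type I) mark subsets of ducts, columnar cells and mature gut cells. Ezrin, encoded by *Ezr*, ties the actin core of microvilli to the membrane, villin (*Vil1*) bundles and severs actin in the brush border, and *Vill* encodes a villin relative. *Igsf8* encodes EWI-2, an immunoglobulin-family partner of the tetraspanins that binds ezrin and its relatives. In the early embryo *Krt8* and *Krt18* are among the first keratins made, in trophectoderm and extraembryonic endoderm.

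The promoters of 8 of the 9 genes were matched by symbol in RefSeq (build GRCm38.p6), and the 120 bases before the start are shown for the keratin pair that fell and for 3 genes that rose, since these carry the contrast. They were searched, within 300 bases reaching 50 bases past the start, for CAATAAA (a core bound by HOX13 proteins), GGGCGG (the GC box) and AACCNGTT (the grainyhead core), each on both strands, and for TATAAA on the sense strand. Capitals mark whole matches inside the stretch shown.
Krt8 (chr15:102004343-102004462, minus strand): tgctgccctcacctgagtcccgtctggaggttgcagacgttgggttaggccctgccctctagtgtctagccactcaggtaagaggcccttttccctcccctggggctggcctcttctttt
Krt18 (chr15:102028096-102028215, plus strand): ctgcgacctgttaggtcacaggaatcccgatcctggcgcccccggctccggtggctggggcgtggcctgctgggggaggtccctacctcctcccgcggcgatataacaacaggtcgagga
Krt7 (chr15:101412283-101412402, plus strand): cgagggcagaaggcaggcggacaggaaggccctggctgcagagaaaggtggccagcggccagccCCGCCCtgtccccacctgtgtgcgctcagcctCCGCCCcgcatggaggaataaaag
Vill (chr9:119052658-119052777, plus strand): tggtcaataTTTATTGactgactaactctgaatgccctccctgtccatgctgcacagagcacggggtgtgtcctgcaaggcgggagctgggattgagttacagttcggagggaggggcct
Ezr (chr17:6782781-6782900, minus strand): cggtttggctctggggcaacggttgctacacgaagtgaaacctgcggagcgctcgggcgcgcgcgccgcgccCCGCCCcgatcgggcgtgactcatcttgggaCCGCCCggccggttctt
The CAATAAA core was in 1 of the 8 promoters, that of *Vill*, where it begins 111 bases before the start on the minus strand and therefore reads TTTATTG. Of all 32851 promoters of that length, 4.6% held it. The GC box was in 4 of the 8, those of *Krt7*, *Vil1*, *Igsf8* and *Ezr*, against 35.7% of all promoters. AACCNGTT was in none of the 8, against 2.09% of all. TATAAA was in the *Krt20* promoter, 29 bases before the start, and in that of *Krt8*, where it spans the start and so is not in capitals, against 8.32% of all. These matches are letters in a window, and binding was not measured here.

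Of the 9 genes, 4 rose with *HOXA13*, 2 fell, 2 did not pass the test and 1 was too low to be tested. *Krt7*, *Ezr*, *Vill* and *Igsf8* rose between 1.47-fold and 2.31-fold, whereas *Krt8* and *Krt18* fell 5.33-fold and 5.24-fold (ratios of means). Groups were compared in edgeR by quasi-likelihood, and p-values were adjusted (Benjamini-Hochberg) over all 13846 genes tested, with an adjusted p under 0.05 as the threshold. By it 27.7% of all genes passed, 14.4% higher and 13.3% lower, so that passing was common in these cells. The 4 that rose passed whichever library was left out, while the number of the 9 that fell became 0 without *HOXA13* 1 or 3, 1 without *HOXA13* 2, 3 without control 1 and 4 without control 2. The median log2 fold change of the 8 tested members was 0.10, and that of all genes 3.73e-05. The groups did not overlap in 7 of the 8 tested members, against 45.7% of all genes tested.

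**Figure D1:**
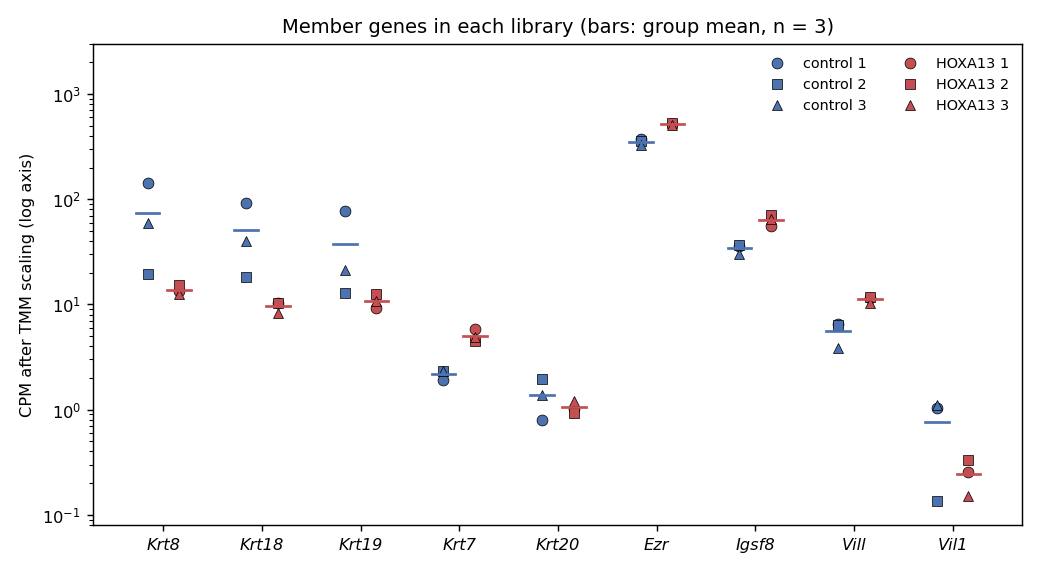
Each of the 9 genes in each library as CPM on a log axis, with circles, squares and triangles for replicates 1, 2 and 3 and bars for group means (n = 3). *Krt8*, *Krt18* and *Krt19* are spread widely among control libraries and narrowly among *HOXA13* libraries, and *Ezr* is the most abundant of the 9.

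The main pair of simple epithelia fell together. *Krt8* was at 142, 19.5 and 58.9 CPM in control 1, 2 and 3 and at 13.5, 15.4 and 12.5 CPM in the *HOXA13* libraries. Every control library was above every *HOXA13* library, but control 2 was above the highest of them only 1.27-fold. Its log2 fold change was -2.42 (standard error 0.60, edgeR adjusted p = 0.0196). *Krt18* was at 92.8, 18.3 and 40.4 CPM in control and at 10.3, 10.3 and 8.32 CPM in *HOXA13* libraries. The order of the libraries was the same as for *Krt8*, with control 1 highest and control 2 lowest of the controls, and the lowest control library was 1.77-fold above the highest *HOXA13* library. Its log2 fold change was -2.39 (standard error 0.51, edgeR adjusted p = 0.0110). In bulk RNA, fewer cells that express a keratin and less keratin RNA per cell cannot be told apart.

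The fall rested on controls that differed among themselves. The highest control library was 7.28-fold above the lowest for *Krt8* and 5.06-fold for *Krt18*, while the *HOXA13* libraries spanned 1.22-fold and 1.24-fold. Over all genes too the control libraries differed more from each other, with chi-square per degree of freedom of 34.2 (control 1 and 2), 21.3 (1 and 3) and 12.7 (2 and 3), against 1.90 to 6.03 between *HOXA13* libraries. Without control 1 the log2 fold changes were -1.52 for *Krt8* and -1.61 for *Krt18*, and both still passed (edgeR adjusted p = 0.00997 and 0.00207). *Krt8* did not pass without *HOXA13* replicate 1, 2 or 3 (edgeR adjusted p = 0.0970, 0.0720 and 0.0789), where its log2 fold changes were -2.40, -2.50 and -2.36, or with limma-voom (adjusted p = 0.0758). *Krt18* did not pass without *HOXA13* replicate 1 or 3 (edgeR adjusted p = 0.0636 and 0.0532), with log2 fold changes of -2.43 and -2.30.

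*Krt19*, a type I keratin of ducts and gut progenitors, went the same way without passing. It was at 77.6, 13.0 and 21.2 CPM in control and at 9.19, 12.5 and 10.8 CPM in *HOXA13* libraries. The groups did not overlap, but control 2 and *HOXA13* 2 were only 1.03-fold apart. The log2 fold change was -1.79 (standard error 0.59, edgeR adjusted p = 0.0557). Whether it passed depended on single libraries and settings, with a log2 fold change of -0.67 without control 1 and -2.21 without control 2 (edgeR adjusted p = 0.0337 and 0.00396). The order of control 1 above control 3, control 3 above control 2 and control 2 above all *HOXA13* libraries was shared by *Krt8*, *Krt18* and *Krt19*, and 8.97% of all tested genes had it.

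**Figure D2:**
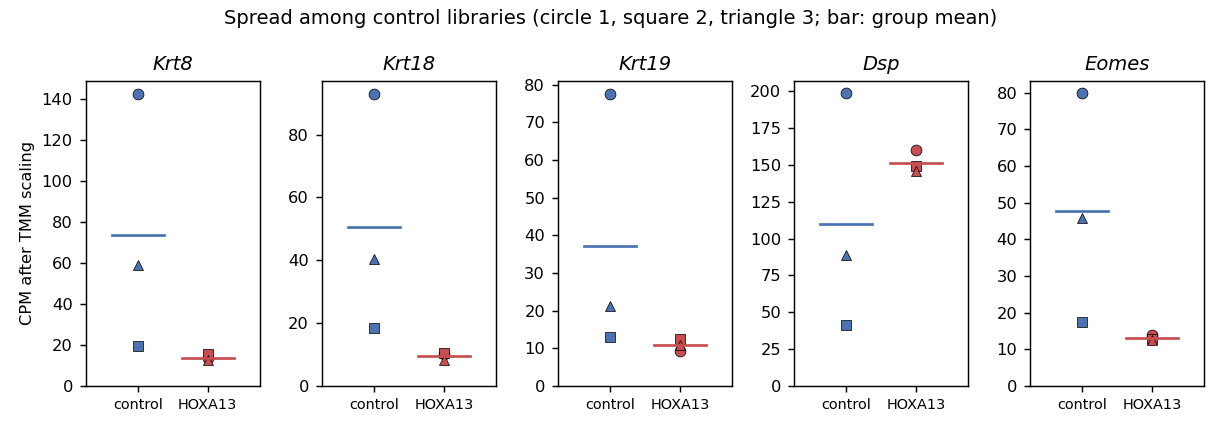
CPM of 3 keratins, *Dsp* and *Eomes* on linear axes from 0, each point 1 library and each bar a group mean (n = 3). In all 5 panels control 1 is highest and control 2 lowest of the controls, while the *HOXA13* libraries lie close together, for *Dsp* between 146 and 160 CPM and for *Eomes* between 12.6 and 13.96 CPM.

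*Eomes*, a trophectoderm and mesendoderm transcription factor, was at 79.9, 17.5 and 45.8 CPM in control and 13.96, 12.7 and 12.6 CPM in *HOXA13* libraries (log2 fold change -1.87, standard error 0.46, edgeR adjusted p = 0.0181). *Dsp*, singled out after its values were seen and encoding the desmoplakin that anchors keratin to desmosomes, was at 199, 41.0 and 88.6 CPM in control but at 160, 149 and 146 CPM in *HOXA13* libraries. It therefore followed the keratins within the control group and not between the groups (log2 fold change 0.46, standard error 0.45, edgeR adjusted p = 0.490).

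The order of control 1 above 3 above 2 was held by 4 of the 6 tested trophectoderm markers (*Cdx2*, *Eomes*, *Hand1* and *Ascl2*), 3 of the 11 tested primitive endoderm markers (*Gata4*, *Lamb1* and *Foxa2*) and 1 of the 8 stem cell markers (*Tdgf1*), and by 0 of the 14 fibroblast markers. This order was taken from the keratins. Its share among all tested genes was not counted, so these counts have no background to be set against. Of the 8 stem cell markers 4 rose (*Nanog*, *Sox2*, *Esrrb* and *Sall4*) and 1 fell (*Tdgf1*). *Sox2* (219.9, 375.7 and 278.8 CPM) and *Esrrb* (256.9, 511 and 294.2 CPM) had the reverse order in control, lowest in control 1 and highest in control 2. The number that rose was 1 without control 3 or any 1 *HOXA13* library and 2 with library size alone, and 2 fell without control 1. The 10 trophectoderm markers listed summed to 101, 29.4 and 61.0 CPM in control and to 43.7, 42.0 and 45.4 CPM in *HOXA13* libraries. Without *Eomes* the other 9 summed to 21.6, 12.0 and 15.3 CPM in control and to 29.7, 29.3 and 32.7 CPM in *HOXA13* libraries, higher with *HOXA13* in every library. Of the 6 tested 2 rose (*Gata3* and *Ascl2*) and 1 fell (*Eomes*), which became 0 without control 3 or any 1 *HOXA13* library or with limma-voom and 2 without control 2. The placental genes *Tpbpa* and *Prl3d1* were at 0 counts in every library.

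The 14 primitive endoderm markers summed to 1313, 1501 and 1557 CPM in control and to 1082, 1205 and 1243 CPM in *HOXA13* libraries. Most of this was *Col4a1*, *Col4a2* and *Lamb1*, matrix genes that fibroblasts also make. The other 11 summed to 79.2, 114 and 81.1 CPM in control and to 59.3, 61.8 and 60.9 CPM in *HOXA13* libraries. Of these, *Lama1* alone was at 38.79, 70.53 and 37.69 CPM in control and at 10.05, 10.68 and 10.66 CPM in *HOXA13* libraries. Its fall was larger than that of the sum, so the rest of the 11 together did not fall. Of 11 tested 2 were higher (*Gata6* and *Sox7*) and 3 lower (*Lama1*, *Lamb1* and *Pdgfra*). Without control 2, 6 were lower, and without *HOXA13* 1, 2 or 3, 1 was higher. *Ttr* was at 0 counts in every library. The part of either cell type in the keratin levels was not tested.

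*Krt7*, the second type II keratin of the set and known from ducts and columnar epithelium, rose from a low level. It was at 1.92, 2.31 and 2.32 CPM in control and at 5.79, 4.46 and 4.91 CPM in *HOXA13* libraries. These values rest on 34 to 46 reads per control library and 65 to 114 reads per *HOXA13* library, and the groups lie well apart. The log2 fold change was 1.22 (standard error 0.19, edgeR adjusted p = 0.00307), a ratio of means of 2.31. *Krt20*, a type I keratin of mature gut and urothelial cells, was at 0.80, 1.97 and 1.36 CPM in control and 1.02, 0.94 and 1.21 CPM in *HOXA13* libraries. These groups overlapped, and the log2 fold change of -0.36 (standard error 0.36) did not pass (edgeR adjusted p = 0.50).

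**Figure D3:**
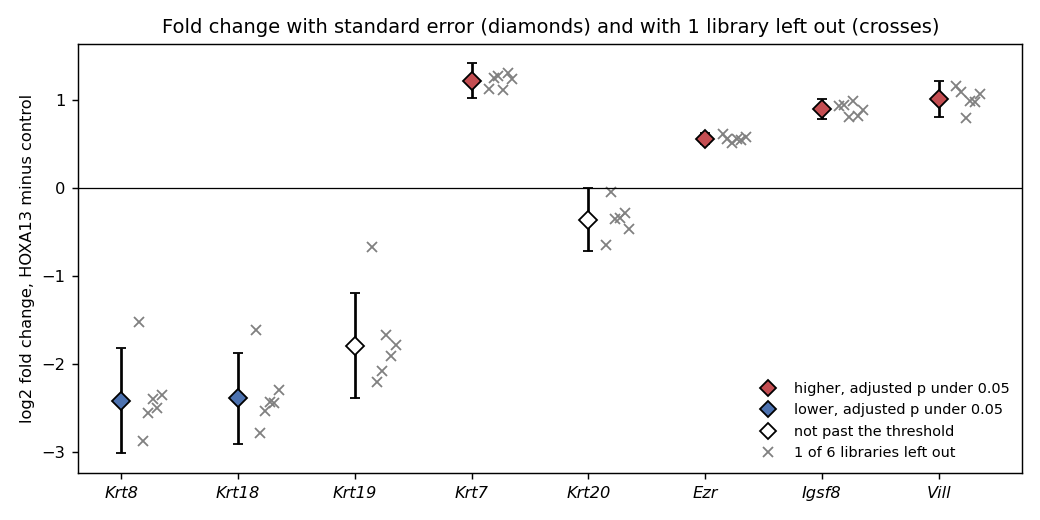
Log2 fold change (*HOXA13* minus control) of the 8 tested genes, with diamonds and bars for edgeR's estimate and its standard error and crosses for the same fit with 1 of the 6 libraries left out. The 4 genes that rose keep values between 0.50 and 1.30, and the isolated crosses of *Krt8*, *Krt18* and *Krt19* at -1.52, -1.61 and -0.67 are the fits without control 1.

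Since filaments need both types, keratins were also compared per kilobase of transcript. In this scale *Krt8* was at 40.7 ± 34.7 CPM per kb in control and 7.64 ± 0.79 CPM per kb in *HOXA13* libraries (SD, n = 3). *Krt18* was at 36.1 ± 27.3 and 6.89 ± 0.82 CPM per kb, and *Krt19* at 23.6 ± 22.3 and 6.88 ± 1.07 CPM per kb. *Krt7* was at 0.53 ± 0.06 and 1.23 ± 0.17 CPM per kb, and *Krt20* at 0.72 ± 0.30 and 0.55 ± 0.07 CPM per kb. In *HOXA13* libraries *Krt8*, *Krt18* and *Krt19* thus lay within their spread of each other, with *Krt7* and *Krt20* lower. The 5 keratins summed to 195, 33.7 and 76.2 CPM per kb in control and to 22.6, 25.4 and 21.6 CPM per kb in *HOXA13* libraries.

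The ratio of the 2 types moved less than their amount. Type I over type II was 1.47, 1.97 and 1.30 in control and 1.54, 1.65 and 1.65 in *HOXA13* libraries, and *Krt8* over *Krt18* was 1.05 ± 0.19 and 1.11 ± 0.08 (SD, n = 3). For these ratios the exact two-sided permutation p was 0.9 and 0.7. Groups did not overlap in 2 measures of the make-up within a type. *Krt7* made up 0.59%, 4.96% and 1.71% of the type II sum in control and 15.9%, 11.4% and 14.7% in *HOXA13* libraries. *Krt8*, the rest of that sum, fell, so the share does not measure the rise of *Krt7* alone. The share also depends on the length taken for *Krt7*, 4094 bases for 1 of its 5 annotated transcripts. *Krt19* over *Krt18* was 0.74, 0.63 and 0.47 in control and 0.80, 1.08 and 1.16 in *HOXA13* libraries. For each of these 2 quantities the exact permutation p was 0.1, the smallest that 3 against 3 libraries can give, and 0.16 after adjustment over the 8 quantities compared.

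**Figure D4:**
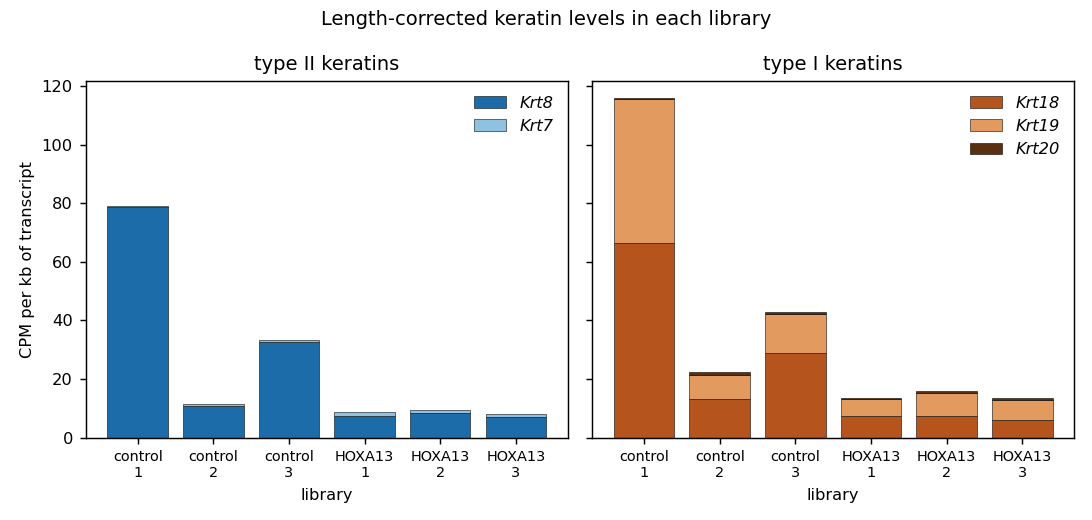
Stacked bars from 0 of CPM per kb of transcript for type II keratins (left) and type I keratins (right) in each library. The stacks are tallest in control 1, at 79.2 for type II and 116 for type I, and the 3 *HOXA13* libraries have low stacks of like height, in which *Krt7* is a visible share of type II.

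*Ezr* was the most abundant of the 9 and changed least among those that rose. It was at 375, 355 and 327 CPM in control and at 520, 528 and 505 CPM in *HOXA13* libraries. The lowest *HOXA13* library was 1.35-fold above the highest control. The log2 fold change was 0.56 (standard error 0.07, edgeR adjusted p = 0.000787). Per length it was at 111 ± 7.62 CPM per kb in control and 164 ± 3.67 CPM per kb in *HOXA13* libraries (SD, n = 3), the first of the 9 in both groups.

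*Igsf8*, whose product joins tetraspanins to ezrin, was at 35.8, 36.9 and 29.9 CPM in control and at 55.8, 70.2 and 64.6 CPM in *HOXA13* libraries. All *HOXA13* libraries were above all controls, by at least 1.51-fold. The log2 fold change was 0.89 (standard error 0.11, edgeR adjusted p = 0.00113). It lies on chromosome 1 of mm9 (174191772 to 174249972), where the median log2 fold change of all 772 tested genes was 0.37 and 56% passed, and with each chromosome centred it was 0.53 (edgeR adjusted p = 0.00923).

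*Vill* was at 6.51, 6.39 and 3.89 CPM in control and at 11.6, 11.7 and 10.3 CPM in *HOXA13* libraries. Control 3 was lower than the other controls, and no control reached a *HOXA13* library. The log2 fold change was 1.00 (standard error 0.20, edgeR adjusted p = 0.00829). Villin itself was near the limit of detection. *Vil1* was counted 23, 2 and 22 times in control and 5, 6 and 2 times with *HOXA13*, against a floor set at 3 counts. Controls 1 and 3 were above every *HOXA13* library, while control 2 and *HOXA13* 3 had the same 2 counts, under the floor. *Vil1* was at 0.76 ± 0.54 CPM in control and 0.25 ± 0.09 CPM in *HOXA13* libraries (SD, n = 3), and edgeR's filter left it out. Without any filter its log2 fold change was -1.61 (standard error 0.66, edgeR adjusted p = 0.115), and without control 2 it was tested and passed at -2.06 (edgeR adjusted p = 0.00470).

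The 9 genes lie on 5 chromosomes of mm9, in the GENCODE annotation. *Krt8* (chromosome 15, 101827142 to 101834773, minus strand) and *Krt18* (101858647 to 101862457, plus strand) are next to each other, 23.9 kb apart. *Eif4b*, a translation factor gene on the far side of *Krt18*, was at 960.0 ± 9.64 and 935.7 ± 17.1 CPM (SD, n = 3) and did not pass (log2 fold change -0.04, edgeR adjusted p = 0.646). *Krt7* (101241474 to 101260744) lies 566 kb from *Krt8* and moved the other way.

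In the type I cluster on chromosome 11, neighbours of the 2 keratins that did not pass did so. *Krt23*, a type I keratin and the next tested gene 39.8 kb from *Krt20* (99289717 to 99299464), rose from 0.68 ± 0.32 to 12.2 ± 1.12 CPM (SD, n = 3, log2 fold change 4.12, standard error 0.28, edgeR adjusted p = 5.44e-05). *Krt15*, a keratin of basal cells 4.86 kb from *Krt19* (100002124 to 100009979), rose from 0.31 ± 0.13 to 1.06 ± 0.28 CPM (log2 fold change 1.75, standard error 0.40, edgeR adjusted p = 0.0144). *Krt10* and *Krt17*, the neighbours on the other sides, did not pass. Next to *Vill* (chromosome 9, 118961896 to 118980643), *Ctdspl*, a phosphatase gene 8.78 kb away, rose by 1.56 on the log2 scale (standard error 0.10, edgeR adjusted p = 3.09e-05). *Plcd1*, 1 base from *Vill* in the annotation, did not pass (log2 fold change 0.21, edgeR adjusted p = 0.163). Both tested neighbours of *Vil1* (chromosome 1, 74455950 to 74482133), *Ctdsp1* and *Usp37* (which shares 100 exon bases with it on the opposite strand), rose, with log2 fold changes of 0.54 and 0.42, against a median of 0.37 and 56% passing on that chromosome. Neither neighbour of *Ezr* (chromosome 17, 6942390 to 6987133) passed.

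Likeness of pattern was measured as the root mean square difference of log2 CPM, centred on each gene's mean, over the 6 libraries, as a description with no test. *Krt18* was the gene most like *Krt8* among all tested (0.18 log2 units), before *Car4* (0.19), a membrane carbonic anhydrase gene, and *Parp10* (0.22). The genes most like *Krt18* were *Chst15* (0.11), *Car2* (0.18), a cytosolic carbonic anhydrase gene, and *Krt8* (0.18). *Krt19* was 45th in likeness to *Krt8* and 84th to *Krt18*. *Krt7* was most like *Rell1* (0.05), *Fbxo15* (0.05) and *Mettl15* (0.07), *Ezr* like *Rab6b* (0.03), *Acvr1b* (0.03) and *Add3* (0.03), *Vill* like *Extl1* (0.09), *Notum* (0.11) and *Was* (0.11), and *Igsf8* like *Sec1* (0.06), *Pmm1* (0.10) and *Eogt* (0.10). *Igsf8* was 37th in likeness to *Vill*.

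Genes that work with the 9 were counted in 8 lists of 96 genes, of which 79 were tested, 19 rose and 14 fell. That is 41.8% past the threshold against 27.7% of all genes, with a median log2 fold change of 0.12. The number that fell was 9 without *HOXA13* 1 or without *HOXA13* 2. The list with most that rose was that of epithelial transcription and splicing regulators, with 10 of 15 tested higher, none lower and a median log2 fold change of 1.14. *Elf3*, an epithelial ETS factor, rose from 23.1 to 28.4 CPM in control to 160 to 174 CPM in *HOXA13* libraries (log2 fold change 2.67, standard error 0.09, edgeR adjusted p = 3.22e-06). *Grhl3*, a grainyhead factor of barrier epithelia, and *Tfap2c*, an AP-2 factor of trophectoderm and germ cells, rose by 2.42 and 2.05 on the log2 scale (standard errors 0.13 and 0.09). Of the intestinal caudal factors, *Cdx1* rose from 9.54, 16.2 and 6.27 CPM in control to 28.5, 28.5 and 33.0 CPM in *HOXA13* libraries (edgeR adjusted p = 0.00625). *Cdx2* was at 5.80, 0.82 and 3.34 CPM in control and 4.32, 2.48 and 4.01 CPM in *HOXA13* libraries and did not pass (edgeR adjusted p = 0.933).

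Among 12 other intermediate filament genes 5 fell and 1 rose, with a median log2 fold change of -0.22. The 5 were the neuronal filaments *Prph* (log2 fold change -3.03, standard error 0.29), *Ina* (-0.89), *Nefl* (-0.74) and *Nefm* (-0.72), and the progenitor filament *Nes* (-1.85, standard error 0.30). *Lmnb1*, a nuclear lamin, rose (0.31), though not without control 3 or any 1 *HOXA13* library. *Vim*, the mesenchymal filament that feeder fibroblasts also make, was at 1958 to 2330 CPM in control and 1633 to 1990 CPM in *HOXA13* libraries (log2 fold change -0.25, edgeR adjusted p = 0.0871). Of 11 keratins of stratified epithelia, 3 were tested and *Krt15* alone passed. None passed without control 3, without *HOXA13* 1 or with at least 10 counts in every library, and 2 were lower without control 1. *Krt6a* and *Krt6b* were at 0 counts in every library. Of 12 tested desmosome and keratin linker genes, *Dsg2*, a desmosomal cadherin, rose (log2 fold change 1.06, standard error 0.15) and *Jup*, encoding plakoglobin, fell (-0.41, standard error 0.11). Without control 1, 4 of these genes were higher and 2 lower, without control 2, 2 were higher and 2 lower, and 0 were lower without 1 of the *HOXA13* libraries, whichever it was.

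**Figure D5:**
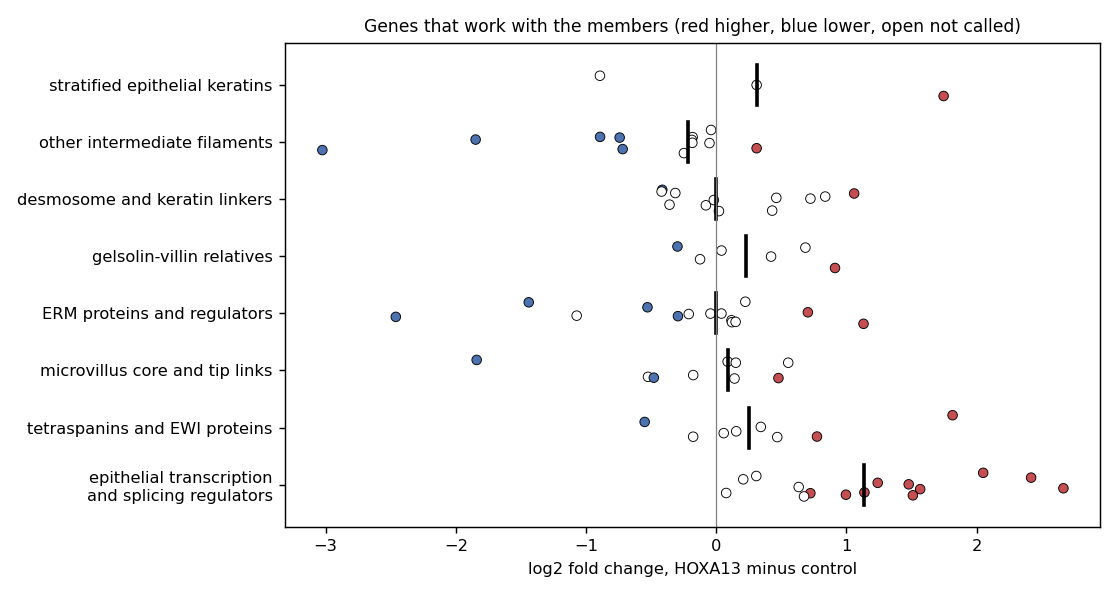
Log2 fold change (*HOXA13* minus control) of the 79 tested genes in the 8 lists, 1 point per gene (red higher, blue lower, open not past the threshold), with a black bar at each list's median. The regulators in the lowest line lie to the right of 0, with a median of 1.14, and the other lists lie on both sides of 0.

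The partners of ezrin moved in both directions. Of 14 ezrin-radixin-moesin (ERM) proteins and regulators 2 rose and 4 fell, with a median log2 fold change of -0.0024. The number that fell was 2 without control 3, *HOXA13* 1 or *HOXA13* 2, and 4 rose without control 1. *Nf2*, encoding the ERM-related tumour suppressor merlin, rose from 180 to 229 CPM in control to 424 to 441 CPM in *HOXA13* libraries (log2 fold change 1.13, standard error 0.10, edgeR adjusted p = 0.000152). *Slk*, a kinase that phosphorylates ERM proteins, rose (0.70) and *Stk10*, a kinase of the same function, fell (-1.44, standard error 0.25). *Podxl*, the podocalyxin that ezrin tethers to the apical membrane, fell from 65.3, 26.1 and 53.0 CPM to 8.28, 8.15 and 10.1 CPM (log2 fold change -2.46, standard error 0.31, edgeR adjusted p = 0.00107). The ezrin paralogue *Msn* fell (-0.29, edgeR adjusted p = 0.0258), as did the ERM-bound receptor *Cd44* (-0.53), and the paralogue *Rdx* did not pass (0.12, edgeR adjusted p = 0.211).

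Microvillus and other actin genes listed beyond ezrin were mostly low or did not pass. Of 14 listed, 9 were tested, and *Cobl*, an actin nucleator, fell (log2 fold change -1.84, standard error 0.27), as did the general actin bundler *Fscn1* (-0.48). The motor *Myo6* rose (0.48), though not without *HOXA13* 2. The brush border link genes *Cdhr2*, *Cdhr5*, *Myo7b* and *Anks4b* were at or under 3 counts in every library. Of 6 relatives of villin, the capping protein gene *Capg* rose (0.91, standard error 0.10) and *Svil*, encoding supervillin, fell (-0.30), though not without control 3, *HOXA13* 1 or *HOXA13* 2. Of 8 tetraspanin and EWI genes other than *Igsf8*, *Tspan8* (1.82, standard error 0.37) and *Cd9* (0.77, standard error 0.14) rose and *Cd151* fell (-0.55), with 1 higher without *HOXA13* 1 and 2 lower without control 1, while *Ptgfrn*, encoding the related EWI-F, had a log2 fold change of 0.15 (edgeR adjusted p = 0.0880).

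The defining genes of gut epithelium were near 0. Of 10 enterocyte and goblet cell markers 2 were tested and neither passed by edgeR, with 0 of the 2 at an unadjusted p under 0.05, and 0 called by DESeq2. With each chromosome centred 1 was called lower. *Fabp1* and *Fabp2* were at 0 counts in every library, and the 10 together summed to between 3.12 and 4.28 CPM in control and between 2.95 and 4.07 CPM in *HOXA13* libraries. The 14 fibroblast markers, which the feeder cells express, summed to 6734, 9540 and 9642 CPM in control and to 8702, 10090 and 10680 CPM in *HOXA13* libraries. None of the 14 passed in the edgeR comparison used here, and 2 had an unadjusted p under 0.05. DESeq2 called 1 higher and 1 lower, and edgeR called 1 lower with RLE factors or with library size alone, 2 lower with each chromosome centred, 2 higher and 1 lower without control 2, and 1 higher and 2 lower without control 1. Control 1, with the lowest of these sums, had the highest *Krt8*, *Krt18* and *Krt19*. In *HOXA13* 1, with the lowest sum of its group, these keratins were at 13.5, 10.3 and 9.19 CPM. The *HOXA13* libraries spanned only 1.22-fold, 1.24-fold and 1.37-fold for them. The part of feeder RNA in the levels was not tested.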

How the data were processed

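Polyadenylated RNA of 6 cultures was sequenced from strand-specific libraries, 3 per group, and groups and replicate numbers were taken from the labels. The authors demultiplexed with bcl2fastq 2.17, mapped reads to mm9 with TopHat2 2.0.14 and counted them per gene with HTSeq 0.6.1p1, per the submitters' processing notes, and deposited raw counts, whole numbers without normalization. The annotation, counting mode and strand setting are not given in the sources used here. Reads shared by genes that overlap or resemble each other can be lost or split by such counting.

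Counts were tested with edgeR 4.0.16 in R 4.3.3 (filterByExpr with a minimum count of 10 and a minimum total of 15, TMM factors, glmQLFit and glmQLFTest without covariates), with Benjamini-Hochberg adjustment over all genes at 0.05. CPM uses TMM-scaled library sizes. Standard errors are the log2 fold change over the square root of F. A floor of 3 counts was 0.134 to 0.227 CPM, and covers counting error only. Ratios of keratins were compared with exact two-sided permutation tests. Per-length levels use the transcript with the longest coding sequence in the mm9 GENCODE annotation, and likeness adds 0.5 CPM before log2. The code was tested on simulated counts.

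The alternatives were RLE factors, library size alone, no filter, a minimum of 10 counts in all libraries, a block for replicate number, robust dispersions, DESeq2 1.42.0, limma-voom (limma 3.58.1), each chromosome centred, and each library left out. Named genes are all members, up to 3 genes with the largest change among those called in each list of companion genes, the 3 genes most like each called member, the nearest tested gene on either side of each member, and markers that were called or defining and near 0. Other genes of those lists are given where a count of 5 or fewer is spelled out, and *Dsp*, *Cdx1*, *Cdx2*, *Vim*, *Rdx*, *Ptgfrn* and companion genes near 0 were singled out after their values were seen. The members and lists were chosen with earlier results of these data known. Promoters are RefSeq's, of GRCm38.p6, and the other positions are of mm9. The result for 1 gene named by this rule is not reported here. Figures were drawn with matplotlib 3.10.9.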

Additional observations from a re-analysis of the deposited data

How the results depend on the processing

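Over the 15 alternatives, *Krt7*, *Ezr*, *Vill* and *Igsf8* passed the threshold in each, with log2 fold changes of 1.10 to 1.30, 0.48 to 0.60, 0.80 to 1.15 and 0.53 to 0.98, and none of the 8 tested members changed direction. The number of members called higher was 4 in every fit. The number called lower was 2, except 1 with limma-voom, 3 with library size alone, with no filter and with each chromosome centred, and 0 to 4 with 1 library left out. Leaving out 1 library gave 2038 to 5007 genes called (3836 with all; 2038, 2104 and 2311 without *HOXA13* 1, 2 and 3), 14 to 24 companion genes higher (19 with all) and 9 to 21 lower (14 with all). *Krt19* also passed with library size alone (edgeR adjusted p = 0.0484), with no filter (0.0308) and with each chromosome centred (0.0440). With library size alone, 1576 genes were higher and 2500 lower, against 1994 and 1842 with TMM, and the cause was not tested. With the replicate number as a block, 3172 genes passed, 1696 higher and 1476 lower, with 4 members higher and 2 lower, and 2 fibroblast markers higher and 1 lower. Libraries of the same number had correlated deviations of -0.019, -0.056 and 0.037, so the numbers were not taken as pairs. Depth limits *Vil1*, at 2 to 23 counts, and *Krt20*, at 16 to 29 counts.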
